A study of Mus musculus with 51 samples.

Results

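The Prader-Willi domain on mouse chromosome 7 holds a string of imprinted genes, and 6 of them, Magel2, Ndn, Mkrn3, Peg12, Snrpn and Ube3a, are described here in mouse embryonic stem cells (mESCs) whose mothers did or did not delete Smchd1 in the oocyte. The 6 were picked by name from the 35591 genes of the deposited count table because of how they behaved in 6 lines grown in 2i LIF medium, so their genotype differences in those lines are given as a description and carry no test. All 6 entered the fit over 17696 genes, but Magel2 passed its read filter only through the maternal null lines.

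Imprinting is the expression of a gene from the chromosome of only one parent. It is set by DNA methylation, or at some genes by the histone mark H3K27me3, laid down in the germ line. In the Prader-Willi domain the genes at the centre are expressed from the father's chromosome, while the mother's copy is methylated at an imprinting centre near the start of Snrpn. Magel2 and Ndn encode proteins of the MAGE family, Mkrn3 and Ube3a encode ubiquitin ligases, Peg12 encodes a relative of the GSK3-binding FRAT proteins, and Snrpn encodes the spliceosomal protein SmN. Ube3a is the exception in the domain, since it is silenced on the father's chromosome in neurons and is expressed from both chromosomes in most other cells. In people, loss of the paternally expressed genes underlies Prader-Willi syndrome and loss of maternal UBE3A underlies Angelman syndrome. SMCHD1 is a chromatin protein of the SMC family that silences genes, among them several imprinted clusters, and the oocyte's supply of it acts before the embryo makes its own.

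The control lines carried Smchd1[fl/+] and the maternal null lines Smchd1[del/+], with 3 lines of each. All 6 were male F1 lines of C57BL/6 and Cast, grown undifferentiated in 2i LIF, a medium with a pair of kinase inhibitors and the cytokine LIF, and poly(A) RNA was sequenced. The deletion was made by Zp3-Cre, which is driven in the growing oocyte, so a maternal null line lacked the oocyte's SMCHD1 but kept a working paternal allele. The same table holds 45 further columns from a differentiation time course of day 0 to day 4, also of Smchd1[fl/+] and Smchd1[del/+] cells. In the study these cells began in DME LIF medium and were taken toward neuromesodermal progenitors. They were given FGF, then FGF with the Wnt activator CHIR99021, and last GDF11 in addition.

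The 6 libraries differed in depth, from 27526359 to 126716460 counts, and line 3 of each genotype stood apart from the other lines for many genes. Of the 17696 genes tested, 4452 (25.2%) were lowest in line 3 in both genotypes, and of the 6 members 3 were, Ndn, Mkrn3 and Snrpn. Smchd1 was counted at 107, 124 and 119 CPM (counts per 1000000 of the TMM-scaled library) in the control lines and at 63.7, 72.0 and 90.7 in the maternal null lines, with no overlap. The 7 pluripotency markers summed to 3510 to 3840 CPM in the control and to 3670 to 3910 CPM in the maternal null lines. The neural markers, which matter for genes best known from the brain, summed to 49.8 to 74.6 CPM in control and 53.4 to 66.6 CPM in maternal null lines, and 1 of the 7, Dcx, had no read in any line. Within that sum Elavl3, a neuronal RNA-binding protein named after its values were seen, stood at 9.65, 8.54 and 6.86 CPM in the control and 12.1, 13.0 and 13.2 CPM in the maternal null lines. Its log2 fold change of 0.61 (SE 0.17) did not pass the test of edgeR (adjusted p = 0.992), and its part in the levels of the members was not tested. Elavl3 does not stand for its list. Of the 5 neural markers tested, 2 had a positive and 3 a negative log2 fold change, with a median of -0.18. Markers of mesoderm, primitive endoderm, trophoblast, fibroblasts and two-cell-like cells also had overlapping sums in the genotypes. A sum can hide single markers. Every maternal null line was above every control line for 1 tested marker each of the pluripotent, neural and mesoderm lists. For 1 trophoblast marker every maternal null line was below. Over all genes tested these patterns were met by 4.7% and 4.68%.

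The genes lie in the order Ube3a, Snrpn, Ndn, Magel2, Mkrn3 and Peg12 on GRCm38.p6. Ube3a spans chr7:59228750-59311536 on the plus strand and Snrpn spans chr7:59982495-60140219 on the minus strand, 671 kb further on. A stretch of 2210 kb follows before the 4 genes that sit together. Ndn at chr7:62346569-62350262 and Magel2 at chr7:62377010-62381640 are on the plus strand, 26.7 kb apart. Mkrn3 at chr7:62417593-62420139 and Peg12 at chr7:62461871-62464510 follow on the minus strand. Each of these last 4 is annotated as 1 exon in GENCODE, against 12 merged exon blocks for Snrpn and 16 for Ube3a.

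The bases just before the transcription start are shown for the 3 single-exon genes whose window overlapped no annotated exon, and for the start that Snrpn shares with Snurf, since DNA methylation acts at CpG sites. Each run is the 250 bases upstream of the RefSeq start on GRCm38.p6, read 5′ to 3′ on the strand of the gene, with each CpG in capitals.
Magel2, chr7:62376729-62376978, plus strand: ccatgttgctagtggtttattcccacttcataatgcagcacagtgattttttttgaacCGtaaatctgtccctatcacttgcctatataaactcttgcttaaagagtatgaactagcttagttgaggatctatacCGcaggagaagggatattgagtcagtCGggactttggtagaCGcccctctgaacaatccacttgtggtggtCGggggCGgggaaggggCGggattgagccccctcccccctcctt
Mkrn3, chr7:62420154-62420403, minus strand: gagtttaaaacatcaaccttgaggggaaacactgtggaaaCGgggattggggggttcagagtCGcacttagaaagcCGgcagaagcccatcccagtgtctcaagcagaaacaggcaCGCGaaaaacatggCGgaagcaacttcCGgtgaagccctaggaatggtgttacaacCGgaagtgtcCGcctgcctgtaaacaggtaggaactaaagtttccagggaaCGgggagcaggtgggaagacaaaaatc
Peg12, chr7:62464511-62464760, minus strand: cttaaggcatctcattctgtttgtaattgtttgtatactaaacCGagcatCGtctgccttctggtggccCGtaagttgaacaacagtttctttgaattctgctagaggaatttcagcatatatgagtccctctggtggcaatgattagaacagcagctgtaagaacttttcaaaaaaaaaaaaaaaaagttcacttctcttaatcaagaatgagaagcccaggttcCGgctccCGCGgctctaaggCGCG
Snurf, chr7:60005200-60005449, minus strand: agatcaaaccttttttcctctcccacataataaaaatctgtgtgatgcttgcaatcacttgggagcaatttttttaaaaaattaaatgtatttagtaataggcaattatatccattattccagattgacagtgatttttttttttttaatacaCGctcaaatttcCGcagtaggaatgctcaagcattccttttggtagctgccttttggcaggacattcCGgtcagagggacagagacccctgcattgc
Magel2 held 7 CpG sites in this window, Mkrn3 10 and Peg12 8, against a median of 6 over the 32851 promoters of the same table. The Snurf start held 3 and Ube3a, whose sequence is not shown because its window overlaps an exon on the other strand, held 24. Ndn, whose window overlaps an exon of its own, held 5, and the other starts of Snrpn held 2, 3 and 4. The GC box, searched as GGGCGG or its complement CCGCCC, occurred 2 times before Magel2, 1 time before Ube3a and not in the other windows, and 32.7% of all promoters hold it. The hexamer TGCCGC, or GCGGCA on the other strand, which is the core recognised by the imprint guardian ZFP57, was found in none of the members' windows, and 8.68% of all promoters hold it. These are matches of letters in a short window, and no DNA methylation was measured in these libraries.

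Magel2 encodes a protein that steers a ubiquitin ligase complex to endosomes and is active mainly in the hypothalamus. It was close to undetected in the control lines, with 0 reads in line 1, 1 read in line 2 and 1 read in line 3. The maternal null lines had 17, 19 and 15 reads. Every maternal null line thus had more reads than any control line, although none had over 19. The exact 95% Poisson intervals, which cover counting error only, ended at 5.57 reads in control lines 2 and 3, and the 0 reads of control line 1 allow up to 3. They began at 9.90, 11.4 and 8.40 reads in the maternal null lines, before any scaling for depth.

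**Figure D1:**
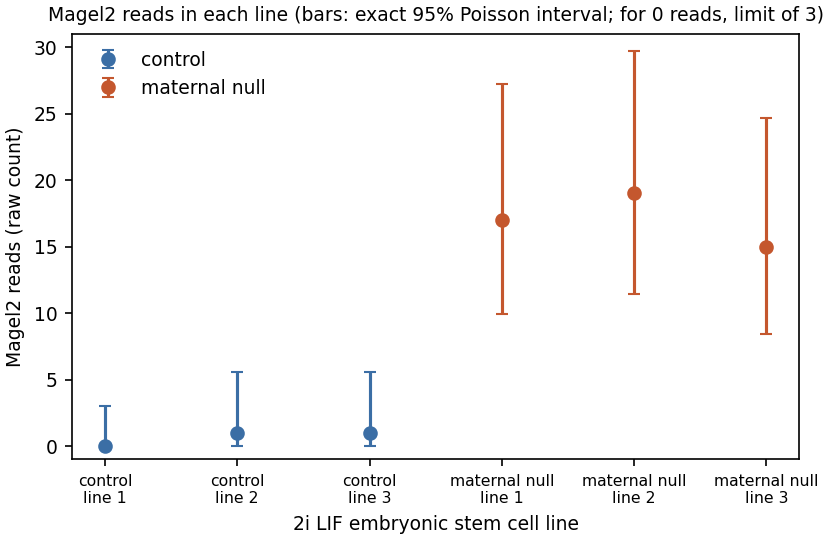
Raw Magel2 reads (vertical axis) in each of the 6 lines of 2i LIF (horizontal axis), with exact 95% Poisson intervals as bars and the limit of 3 counts for 0 reads. The 3 control lines had 0 or 1 read and the 3 maternal null lines 15 to 19. Reads are not scaled for depth, and the scaled intervals of the genotypes overlap for some lines.

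Scaled for library size, Magel2 stood at 0, 0.00768 and 0.021 CPM in the control lines and at 0.141, 0.175 and 0.43 CPM in the maternal null lines. The means were 0.00956 ± 0.0106 (SD, n = 3) and 0.249 ± 0.158 (SD, n = 3) CPM. A low level in a culture can come from few expressing cells or from little RNA in each, which cannot be told apart in bulk RNA. In control line 1, the shallowest library, the 0 reads allow a level of up to 0.108 CPM, and in control line 3 the interval ended at 0.117 CPM. Both reach the intervals of maternal null lines 1 and 2, which began at 0.082 and 0.106 CPM. Control line 2, with 126716460 counts, bounds the control level best, since its interval ended at 0.0428 CPM. Maternal null line 3 was the highest of all, and its interval of 0.241 to 0.709 CPM lay above that of maternal null line 1, which ended at 0.225 CPM.

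Pooled by genotype, 2 reads stood against 51. The ratio of read rates was 19.9, with an exact conditional 95% interval of 5.22 to 168 that again covers counting error only. Leaving out each line in turn gave ratios from 14.6, without control line 2, to 30.5, without control line 3. The fitted log2 fold change was 4.32 with a standard error of 0.89, the largest rise among the 17696 genes tested. Magel2 was among those genes only because the maternal null lines, where it was high, carried it past the read filter. The highest control count of Magel2, 1 read, and its lowest maternal null count, 15 reads, were also taken as limits. Of all 35591 counted genes, only Magel2 (1 gene, 0.00281%) met both in every line, which it did by construction. The opposite pattern at the same limits was met by 0 genes. Magel2 was chosen on this contrast, so its ratio, its interval, its place in the ranking and this count describe why it was picked and are no test.

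Peg12 was the other gene whose lines did not overlap. Its reads numbered 416, 1691 and 372 in the control lines and 2106, 2071 and 636 in the maternal null lines. In scaled terms these were 15, 13 and 7.81 CPM against 17.4, 19.1 and 18.2 CPM, means of 11.9 ± 3.7 and 18.3 ± 0.83 (SD, n = 3). The maternal null lines lay close together and the control lines were spread, with control line 3 far below the others. The fitted log2 fold change was 0.62 with a standard error of 0.23. With each line left out in turn it ranged from 0.39 to 0.82, and without control line 3 the change was at its smallest. Among all genes tested, 831 (4.7%) had every maternal null line above every control line and 828 (4.68%) had every one below. Among the 6 members, Magel2 and Peg12 were of the first kind and none was of the second, in the contrast that was used to pick them.

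Ndn, which encodes necdin, a growth suppressor of postmitotic neurons, was counted at 7.56, 6.48 and 3.92 CPM in the control lines. In the maternal null lines it was counted at 9.63, 9.56 and 4.73 CPM. The groups overlapped, because line 3 of each genotype was well below its fellow lines. The ratio of line 3 to the mean of lines 1 and 2 was 0.559 in the control and 0.493 in the maternal null. The means were 5.99 ± 1.87 and 7.97 ± 2.81 CPM (SD, n = 3) and the fitted log2 fold change was 0.42 with a standard error of 0.33. Between lines of the same number Ndn was higher in the maternal null in 3 of 3 pairs, by 1.27, 1.48 and 1.2 times. The same held for Magel2, Peg12 and Ube3a, while Mkrn3 and Snrpn were higher in 2 of 3 pairs. Of all genes tested, 2737 (15.5%) were higher in 3 of 3, and the members were picked on this contrast. These counts depend on the numbering of the lines, which is not known to pair them. Ube3a, for example, stood at 148 CPM in control line 2 and at 136 CPM in maternal null line 1.

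Mkrn3, a makorin-type ubiquitin ligase that holds back the onset of puberty, stood at 8.10, 6.86 and 5 CPM in the control lines and at 8.16, 8.59 and 3.10 CPM in the maternal null lines. Line 3 was again the lowest in both genotypes, and maternal null line 3 held 108 reads, the fewest of any line for this gene. Its ratio to the mean of lines 1 and 2 was 0.668 in the control and 0.37 in the maternal null. The means of 6.65 ± 1.56 and 6.61 ± 3.05 CPM (SD, n = 3) were almost equal. The log2 fold change of 0.01 (SE 0.37) had no stable sign, running from -0.21 to 0.34 over the alternatives, with 6 of 13 of them opposite in sign.

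Snrpn was the most abundant of the members for its length. Its levels were 81.5, 74.7 and 71.0 CPM in the control lines and 78.0, 96.1 and 71.2 CPM in the maternal null lines. The ranges overlapped, and maternal null line 2 alone lay above the control range. Its log2 fold change was 0.11 (SE 0.13). Ube3a, counted at 135, 148 and 149 CPM in the control lines, stood at 136, 164 and 158 CPM in the maternal null lines. The ranges of Ube3a overlapped as well, and its log2 fold change was 0.08 (SE 0.11). Neither difference exceeded its standard error.

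**Figure D2:**
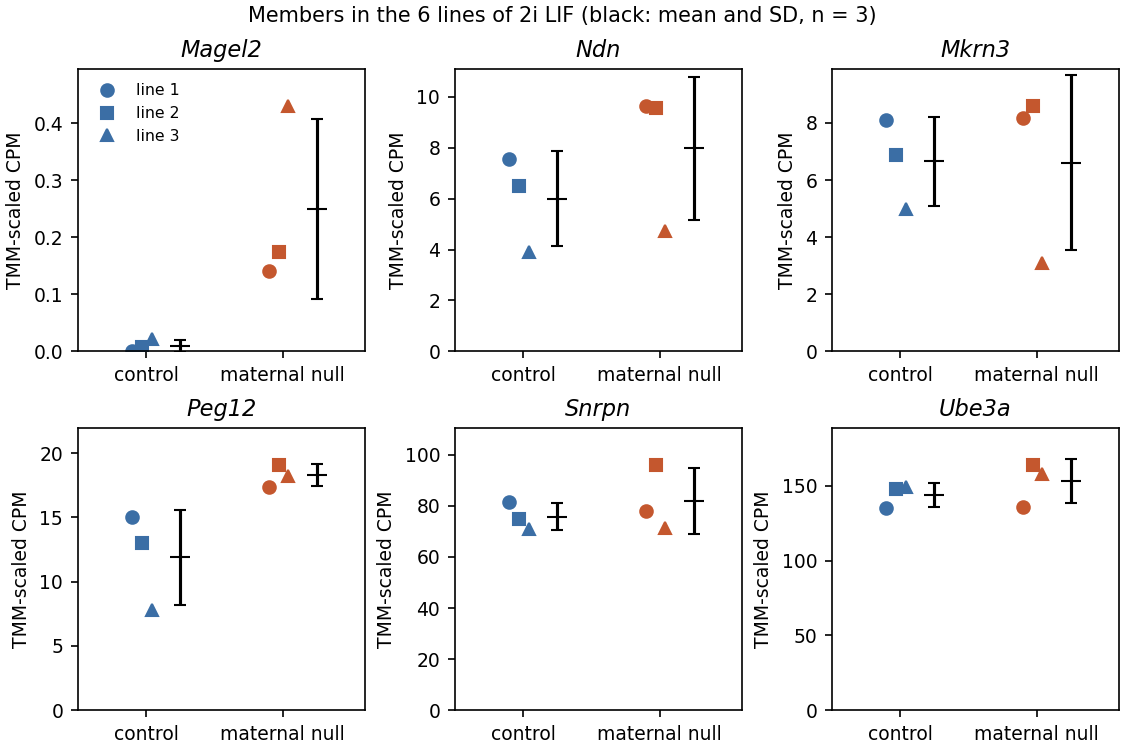
Level of each member in TMM-scaled CPM (vertical axis, from 0) in control and maternal null lines, with 1 point per line (circle, square and triangle for lines 1, 2 and 3) and the mean and SD (n = 3) in black. The genotypes do not overlap for Magel2 and Peg12, and line 3 is the lowest of its genotype for Ndn and Mkrn3.

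Some of these counts may hold reads of more than 1 transcript. The library kit was stated as stranded or non-stranded, and the strand setting of the count was not given in the sources used here. On the annotation, 10% of the exon bases of Snrpn are shared with Snurf and 27.3% with Gm38393, both on its own strand. Of the exon bases of Ube3a, 8.74% are overlapped by Snhg14, 9.82% by Gm44560 and 8.71% by 9330162G02Rik, all on the opposite strand. Snhg14 is the long RNA that runs through the domain from Snrpn and silences paternal Ube3a in neurons, so antisense reads could add to the count of Ube3a. Magel2, Ndn, Mkrn3 and Peg12 share no exon base with another annotated gene. The counts do not separate the parental alleles, so a level is the sum over both chromosomes.

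Divided by exon length, the control levels fell in the order Snrpn, Ube3a, Peg12, Mkrn3, Ndn and Magel2. Snrpn stood at 35.1 ± 2.47 CPM per kb and Ube3a at 6.99 ± 0.385 CPM per kb (SD, n = 3). Peg12 was next at 4.52 ± 1.40, then Mkrn3 at 2.61 ± 0.614 and Ndn at 1.62 ± 0.506 CPM per kb. Magel2 came last at 0.00206 ± 0.00229 CPM per kb, far under all others. The ranges of Peg12 and Mkrn3 overlapped across control lines, as did those of Mkrn3 and Ndn, with line 3 low for all 3 genes. Within a line the order held, with Peg12 above Mkrn3 and Mkrn3 above Ndn in 3 of 3 control lines. In the maternal null lines Peg12, at 6.92 ± 0.314 CPM per kb, overlapped with Ube3a at 7.41 ± 0.708. Within a line Ube3a was above Peg12 in 3 of 3 maternal null lines, but Mkrn3 was above Ndn in only 2 of 3. Magel2 at 0.0537 ± 0.0341 CPM per kb still had the lowest level of the 6 there, although its neighbour Ndn, 26.7 kb away, stood at 2.16 ± 0.76.

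The rest of the chromosomal interval, from 1 Mb before Ube3a to 1 Mb after Peg12, holds 28 other counted genes. Of these, 13 had no read in any of the 6 lines and 7 were abundant enough to be tested. The quasi-likelihood test of edgeR called 0 genes of the interval and 0 of all 17696 at an adjusted p under 0.05 (0.0%), and at an unadjusted p under 0.05 it passed 0 of the 7 and 397 of all genes (2.24%). DESeq2 called 0 genes, and the exact test of edgeR called 2 (0.0113%), Magel2 and Gemin5, neither of them among the other genes of the interval. For Magel2, which was picked on this contrast, that call is no support. Chrna7, a nicotinic receptor subunit beyond Peg12, was counted at 1.55, 1.67 and 1.72 CPM in the control lines and 2.26, 2.33 and 2.06 CPM in the maternal null lines. Its lines did not overlap, and its log2 fold change of 0.43 (SE 0.20) did not pass the test. Snhg14 stood at 78.0, 77.0 and 58.8 CPM against 57.6, 91.2 and 33.9 CPM, with a log2 fold change of -0.22 (SE 0.31) and an adjusted p of 0.992 by edgeR. Like Ndn and Mkrn3, Snhg14 was lowest in line 3 of each genotype, as were Snrpn, Gm38393 and 9330162G02Rik. Whether these share a source in line 3 was not tested.

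**Figure D3:**
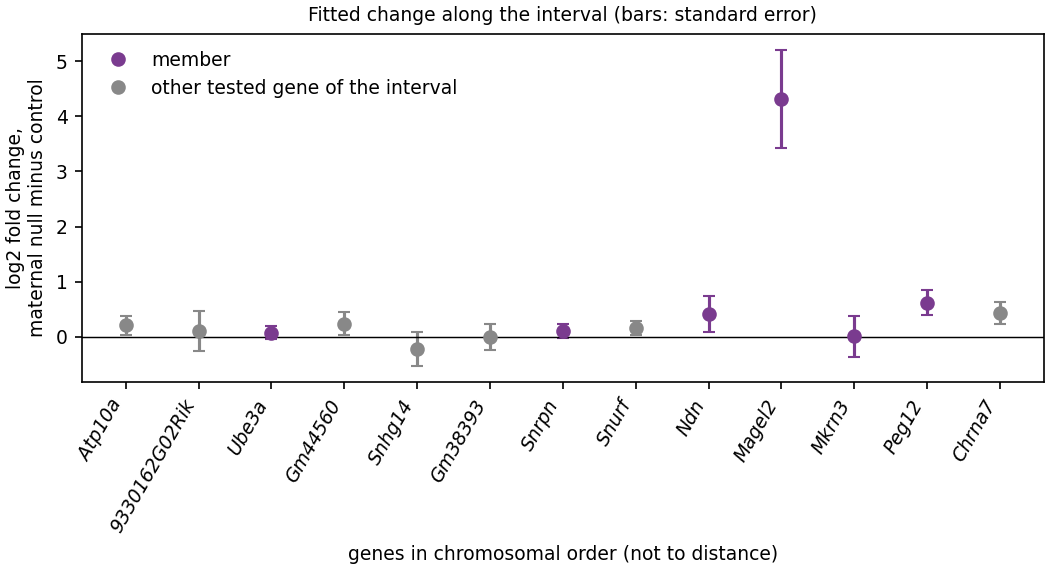
Fitted log2 fold change of maternal null over control (vertical axis) with its standard error for the 13 tested genes of the interval, in chromosomal order (horizontal axis, distances not drawn to scale). Magel2 stands at 4.32, and every other gene lies between -0.22 and 0.62.

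The wider list of genes of the domain and its flanks named 13, of which 12 were counted and 9 tested. It held 0 genes called in either direction. The median change of its tested genes was 0.05 on the log2 scale, beside -0.01 over all genes tested. Atp10a, a phospholipid flippase next to Ube3a, had a log2 fold change of 0.21 (SE 0.17), and Snurf, the reading frame upstream of Snrpn on the same transcript, had 0.16 (SE 0.13).

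Proteins known to work with the members were looked at next, on lists drawn up by function. The partners of MAGEL2 are the ubiquitin ligase TRIM27, the deubiquitinase USP7, the WASH complex that builds actin on endosomes and the retromer that returns cargo from them. All 11 of their genes were tested and 0 were called, and their median log2 fold change was 0.04. Usp7 stood at 579 ± 14.2 CPM in control and 655 ± 142 CPM in maternal null lines (SD, n = 3), Trim27 at 143 ± 15.4 and 133 ± 31.3, and Washc3, a WASH subunit, at 28.0 ± 2.15 and 24.3 ± 1.47. Vps29, a retromer subunit, had a log2 fold change of -0.11 (SE 0.12). All 11 were well covered in the lines where Magel2 itself had 0 to 19 reads.

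SmN, the product of Snrpn, takes the place of SmB in the ring of Sm proteins around spliceosomal RNAs. The 7 Sm core genes held 0 called genes, with a median log2 fold change of -0.13. Snrpe changed by -0.31 (SE 0.19), Snrpg by -0.26 (SE 0.28), Snrpd2 by -0.16 (SE 0.29) and Snrpd3 by 0.19 (SE 0.22), none past the test. Of the 9 relatives of Magel2 and Ndn on the MAGE list, with the SMC5/6 subunits that bind them, 8 were tested and 0 called, with a median of -0.08. Maged1, the most abundant of the MAGE genes there, was counted at 223 ± 13.6 and 241 ± 14.8 CPM. Magee2 had a log2 fold change of -0.33 (SE 0.24), Nsmce4a of -0.20 (SE 0.10) and Maged2 of -0.10 (SE 0.13). Lines without overlap also occurred on these lists. Every maternal null line was below every control line for 1 MAGEL2 partner, 1 Sm core gene and 2 genes of the MAGE list. Every one was above for 1 gene of the MAGE list. Over all genes tested, 4.68% were of the first kind and 4.7% of the second. The 9 genes known for keeping imprints, such as Dnmt1 and Zfp57, also held 0 called genes, with a median of 0.05. Among them Dppa3, which protects the maternal genome of the zygote, had a log2 fold change of 0.27 (SE 0.19), Dnmt1 of 0.12 (SE 0.15), Ehmt1 of 0.10 (SE 0.12) and Uhrf1 of -0.09 (SE 0.18). Over the lists of the interval, the domain, the MAGE partners, the Sm core, the MAGE family and imprint maintenance, 48 genes that are no members were tested, and at an unadjusted p under 0.05 edgeR's quasi-likelihood test, edgeR's exact test and DESeq2 each passed 0 of them, beside 2.24%, 2.61% and 2.6% of all genes tested.

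Over the 6 lines, the genes most like Magel2 in log2(CPM + 0.1) were Celf2 (Pearson r = 0.992), Klf11 (0.986), Katnal2 (0.984), Ppm1b (0.983) and Palm3 (0.982). Of the genes tested, 50 had an r of at least 0.95 over these 6 points. None of these 5 is a member of the domain. The control values of Magel2, 0 to 0.021 CPM, lie far under the added 0.1 and nearly coincide. The r values therefore rest largely on the genotype contrast by which Magel2 was picked. They rest also on maternal null line 3, at 0.43 CPM from 15 reads.

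The 45 time course columns showed how far the members can range in the same kind of cell as it differentiates. These columns were pooled without genotype or day, because over 73 developmental genes only 7 of the 45 matched best with the log2 RPKM values filed under their own name, and 38 matched better with those of another library. One column held no reads on 14 of the 22 chromosomes, which inflates its CPM, so ranges were also taken over the other 44. The time course and the 2i LIF libraries were scaled separately, and they differ in medium, read layout and depth, which cannot be told apart here. Magel2 had at least 1 read in 32 of the 45 columns and up to 453 reads. Its level ran from 0 to 13.1 CPM with a median of 1.5, and in 30 columns it was above the highest of the 6 lines in 2i LIF, 0.43 CPM. The 13 columns without a read had from 281284 to 59394829 counts, which allow up to 11.4 CPM in the shallowest and 0.0668 CPM in the deepest. In the 5 of them with over 10000000 counts, Magel2 was not detectable at limits of 0.0668 to 0.34 CPM, below the median.

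**Figure D4:**
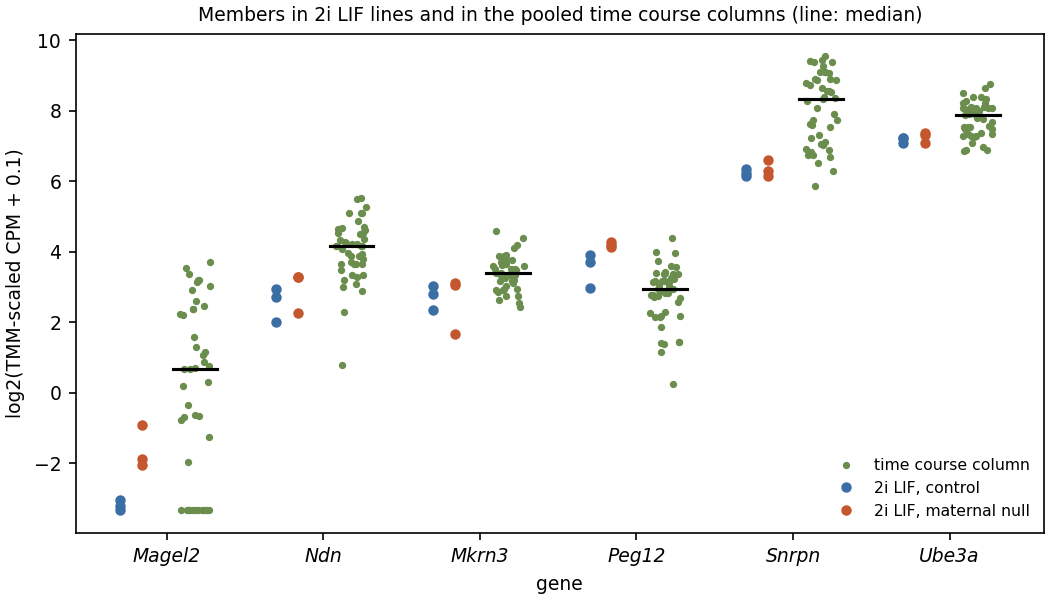
Level of each member as log2(TMM-scaled CPM + 0.1) (vertical axis) in the 3 control and 3 maternal null lines of 2i LIF and in the 45 pooled time course columns, whose median is the black line. Magel2 has the widest range and reaches 13.1 CPM, and the median of Peg12 is below its 2i LIF lines.

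The other members moved less. Ndn ran from 1.62 to 45.9 CPM with a median of 17.8, which was 2.54 times its median over the 6 lines, and Snrpn from 58.1 to 742 CPM with a median of 320, 4.18 times its own. In the 7 columns whose names passed the check the median of Snrpn was 119 CPM, 1.56 times its median over the 6 lines. Ube3a ran from 116 to 433 CPM with a median of 233, and Mkrn3 from 5.26 to 23.8 with a median of 10.4, the narrowest relative range with that of Ube3a. Peg12 went the other way. It had a median of 7.58 CPM, 0.468 times that over the 6 lines, and 24 of 45 columns lay below the lowest line. Without the column with missing chromosomes the medians were 1.32 for Magel2, 17.8 for Ndn, 314 for Snrpn, 227 for Ube3a, 10.3 for Mkrn3 and 7.58 CPM for Peg12.

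Relations between members within these columns do not need the column names. Over the 44 columns, Ndn and Peg12 had a Spearman rho of 0.76, Magel2 and Snrpn of 0.64, and Magel2 and Ndn of 0.43, while Mkrn3 had values of -0.17 to 0.13 with the other 5. The columns share lines and time points and are no independent samples, so these values are descriptions without a p. In the 10 columns with the highest Snrpn, at 537 to 742 CPM, Magel2 was detected in 10 and stood at 4.58 to 13.1 CPM. In the 10 with the lowest Snrpn, at 58.1 to 131 CPM, Magel2 was detected in 5 and had a median of 0.158 CPM, with 1 column as high as 8.01. Other measures moved with these levels too. Tubb3, a neuronal tubulin, had a rho of 0.72 with Magel2, Pou5f1, the pluripotency factor, had 0.80 with Snrpn, and the total count of the column had 0.38 with Magel2. Their part in the relation of Magel2 to Snrpn was not tested.

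**Figure D5:**
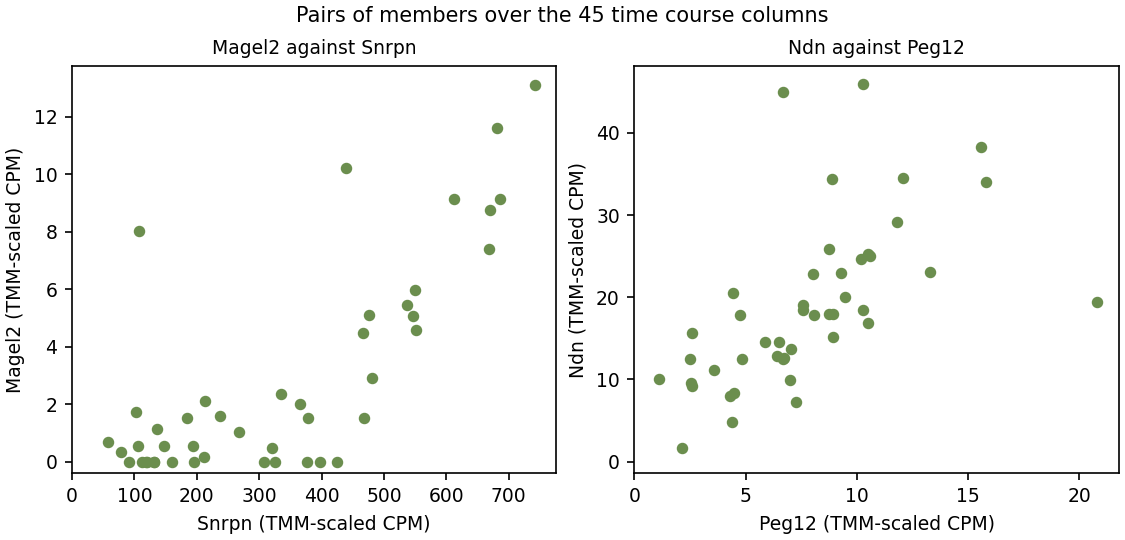
Magel2 against Snrpn (left) and Ndn against Peg12 (right) in TMM-scaled CPM over the 45 time course columns, 1 point per column. Magel2 is between 4.58 and 13.1 in the 10 columns with the highest Snrpn and is often at 0 elsewhere.

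Among the genes compared, the nearest to Magel2 over all 45 columns were Pnmal1 (rho = 0.872), Pde4b (0.863), Eef1a2 (0.863), Cyp2j13 (0.853) and Cend1 (0.842). For Ndn they were Mpdz (0.905), Tada1 (0.892), Zfp41 (0.857), Maml1 (0.856) and Arnt2 (0.854). For Snrpn they were its own overlapping partner Snurf (0.974), then Ncl (0.906), Nasp (0.884), Sephs1 (0.875) and Actl6a (0.86). Without the column with missing chromosomes, 3 of the 5 stayed for Magel2, 5 of 5 for Ndn and 3 of 5 for Snrpn.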

How the data were processed

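RNA was from 6 libraries of mESCs in 2i LIF and 45 time course libraries. The authors trimmed reads with Trim Galore 0.4.4 and mapped them with HISAT2 2.0.5 to GRCm38.p6, per the submitters' processing notes, and counted them per gene in SeqMonk. The deposited values are raw counts per gene, and deposited log2 RPKM values of selected genes served only to check column names. The order of the 6 totals in 2i LIF was the same as that of the mapped reads listed by the study.

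Counts of 35591 genes were scaled by TMM in edgeR 4.0.16 (R 4.3.3). Genes kept by filterByExpr, 17696, were tested between genotypes with the quasi-likelihood test, 3 lines against 3, and p-values were adjusted by Benjamini-Hochberg. CPM values use TMM-scaled library sizes. Exon lengths came from GENCODE and promoters from RefSeq, both on GRCm38.p6, and all 6 members matched. Intervals are exact at 95%, except that a count of 0 has 3 counts as its limit, and cover counting error only. Alternatives were DESeq2 1.42.0, other scalings, filters and tests, a replicate block and each line left out. On simulated data with 200 changed genes among 17696, the test recovered 48.5% of genes at a 2-fold and 86.5% at a 4-fold change. The changed genes were drawn at random from all levels. These shares therefore do not give the recovery of a single low-count gene such as Magel2 or of a short list.

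Lines carry the same numbers in both genotypes. The deviations of same-numbered lines from their group means correlated at 0.165, 0.334 and 0.383 over 17696 genes. They thus meet the rule used here, every pair over 0.1. However, control line 1 was nearer to maternal null line 2 (0.239), and control line 2 correlated at 0.123 with maternal null line 1. Pairs with these 2 lines swapped meet the rule too, so it does not single out the same-numbered pairs. The labels give line numbers but state no pairing. The study describes the lines as independent, each blastocyst having been plated on its own.

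The members and lists were chosen with earlier results of these data known. Named are the 6 members, Smchd1, up to 4 genes of each list with the largest absolute log2 fold change among those with a mean of at least 10 reads, genes called by an alternative if 5 or fewer, and the 5 most alike for each likeness, in the time course among genes with a mean of at least 5 reads. One gene that this rule names is not reported here. The motifs, the ends of the Snrpn order and the comparison of line 3 were chosen after seeing the data.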

Additional observations from a re-analysis of the deposited data

Results flagged for a closer look

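Magel2, which had at most 1 read per control line in 2i LIF, was above the highest control line, 0.021 CPM, in 32 of the 45 time course columns. That level is 1 read in control line 3. The 32 columns are those with at least 1 Magel2 read, so the comparison restates detection. These columns stand outside the genotype comparison. Most of their names disagree with the log2 RPKM values filed under the same names, so no genotype or day can be given for these values, and differences in medium and library preparation cannot be told apart from differentiation.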

How the results depend on the processing

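The count of called genes was 0 under every alternative tried except the exact test of edgeR, which called 2. In the fit with the line number as a replicate block, 0 genes were called and 730 had an unadjusted p under 0.05, against 397 without it, and the block changed no call. With each line left out in turn, 0 genes were called. The log2 fold change of Magel2 then ranged from 3.82, without maternal null line 3, to 4.89, without control line 3, against 4.32 with all lines. Both moves were larger than 0.44, the value taken as the spread between lines, but smaller than the standard error of 0.89 of the main fit. Magel2 was too low for the filter and gave no value with at least 10 counts required in every library or without control line 2, maternal null line 1 or maternal null line 2. The sign of Mkrn3 turned in 6 of 13 alternatives and that of Snrpn in 1 of 13, and Ndn (0.20 to 0.69), Peg12 (0.39 to 0.82) and Ube3a (0.04 to 0.17) kept theirs in all 13. Genes of the lists had 0 calls in each alternative. Depth limits the values of Magel2, since 1 read in control line 1 is worth 0.036 CPM. The medians over the time course moved by less than the spread between columns in each alternative, but that of Snrpn was 119 CPM in the 7 columns with matching names, against 320 in all 45.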
